A study of Homo sapiens with 6 samples.

Results

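A rule picked 50 of 18255 genes measured in THP-1 cells. They read 0.9 or more lower on the log2 scale in cells given LC53 before lipopolysaccharide (LPS) than in resting cells and in LPS-alone cells. LPS alone left them within 0.5 of the resting level. Their resting mean was 100 or more, both LC53 plus LPS arrays lay below the other 4, and solute carrier genes were left out. Whatever the size of the difference, both arrays lay below the other 4 in 7.90% of all genes. The 50 genes included CSF1R, the receptor for colony-stimulating factor 1, the surface proteins CD93 and PECAM1, the kinase FYN and the phosphatase PTPN6. Also among them were the intermediate filament protein vimentin (VIM), the telomere protein TERF2 and the mitochondrial carbonic anhydrase CA5A. CSF1R was at 37.7% of the LPS level and 46.7% of the resting level, VIM at 36.7% and 38.2%, and CA5A at 31.6% and 31.8%. The median of the 50 genes was -1.27 on the log2 scale against LPS and -1.29 against resting cells. The same medians over all 18255 genes were 0.16 and 0.10.

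The genes were chosen from the measured values. Each gene with a single symbol was represented by its brightest probe, judged by the mean of 6 arrays, with a floor of 1, and log2 values were averaged within each group. A mean intensity of 100 or more in resting cells left 10906 genes, and a difference of LPS from resting between -0.5 and 0.5 left 7518. Of these, 94 were at -0.9 or lower in LC53 plus LPS against LPS, and 59 of the 94 were so against resting cells too. In 52 of the 59 both LC53 plus LPS arrays lay below the other 4. The solute carrier genes SLC27A3 and SLC7A7 were then set aside, which left 50. All 3 contrasts of the study were thus used in the choice, so the differences given here describe the genes and are not tests of them.

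The 6 single-colour Cy5 arrays held 31741 probes each, with 2 arrays for each of 3 groups of THP-1, an established human monocytic leukaemia line kept in medium with 0.5% serum. In the resting group neither agent was added. The LPS group had 50 ng/ml LPS for 8 h, and the LC53 plus LPS group had 5 µM LC53 for 15 min ahead of the same LPS exposure. No group with LC53 alone was listed, so a response to LC53 itself and a response that needs LPS as well cannot be told apart. Nothing in the labels tells if both arrays of 1 group stem from independent cultures. The series title names theissenolactone C and TAK-1/IKK signalling, and LC53 is named here only by its code.

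The median probe intensity was 84.4 on LPS replicate 1 and 124.0 on LPS replicate 2, and between 99.2 and 112.7 on the other 4 arrays. Replicate arrays correlated at r = 0.9879 to 0.9931 across probes, which are not independent replicates. Of 12 markers of monocytic cells 11 were measured, and all 11 read 100 or more on every array (among them LYZ, TYROBP and CSF1R itself), with sums of 66033 to 85541. Single markers differed in direction. CSF1R, FCER1G, CD68 and CD33 had their lowest group mean in LC53 plus LPS cells (885, 8469, 1464 and 2458). LYZ, TYROBP and ITGAM had their highest there (14681.5, 24578 and 247.8). For CD14, SPI1, MPO and CEBPA that mean lay between the other groups. Of 13 markers of other cell types 11 were measured. At 100 or more on every array were 2 of them, CD3D (441 to 636) and COL1A1 (272 to 461), and HBA1 read 94.8 to 182. The 5 under 100 on every array were CD3E, CD79A, COL3A1, KRT5 and ALB. The summed level of the 11 other-cell markers was 1316 and 1463 in resting, 1139 and 1541 in LPS, and 1569 and 1878 in LC53 plus LPS cells, and EPCAM read 6.94 to 40.4 on the other 4 arrays and 147 and 174 after LC53 and LPS. The part of these markers in the results was not tested. Fewer cells of a type and less RNA per cell cannot be told apart in these bulk samples. Array values of different probes share no common scale, so no probe's level is set against another's. The marker sums are compared only between arrays, and the brightest probes, such as those of CEBPA and TYROBP, weigh most in them.

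Monocytes sense LPS through TLR4, whose adaptors activate the kinases TAK1 and IKK and so NF-kB. A gene that LPS leaves alone can still depend on signals that maintain the monocyte. Examples are CSF1R, SRC family kinases and lineage transcription factors including PU.1. Whether the genes described here depend on any of these signals was not tested. SPI1, which encodes PU.1, had group means of 330.2 in resting, 918.5 in LPS and 441.5 in LC53 plus LPS cells. CSF1R is a target gene of PU.1 in this lineage.

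**Figure D1:**
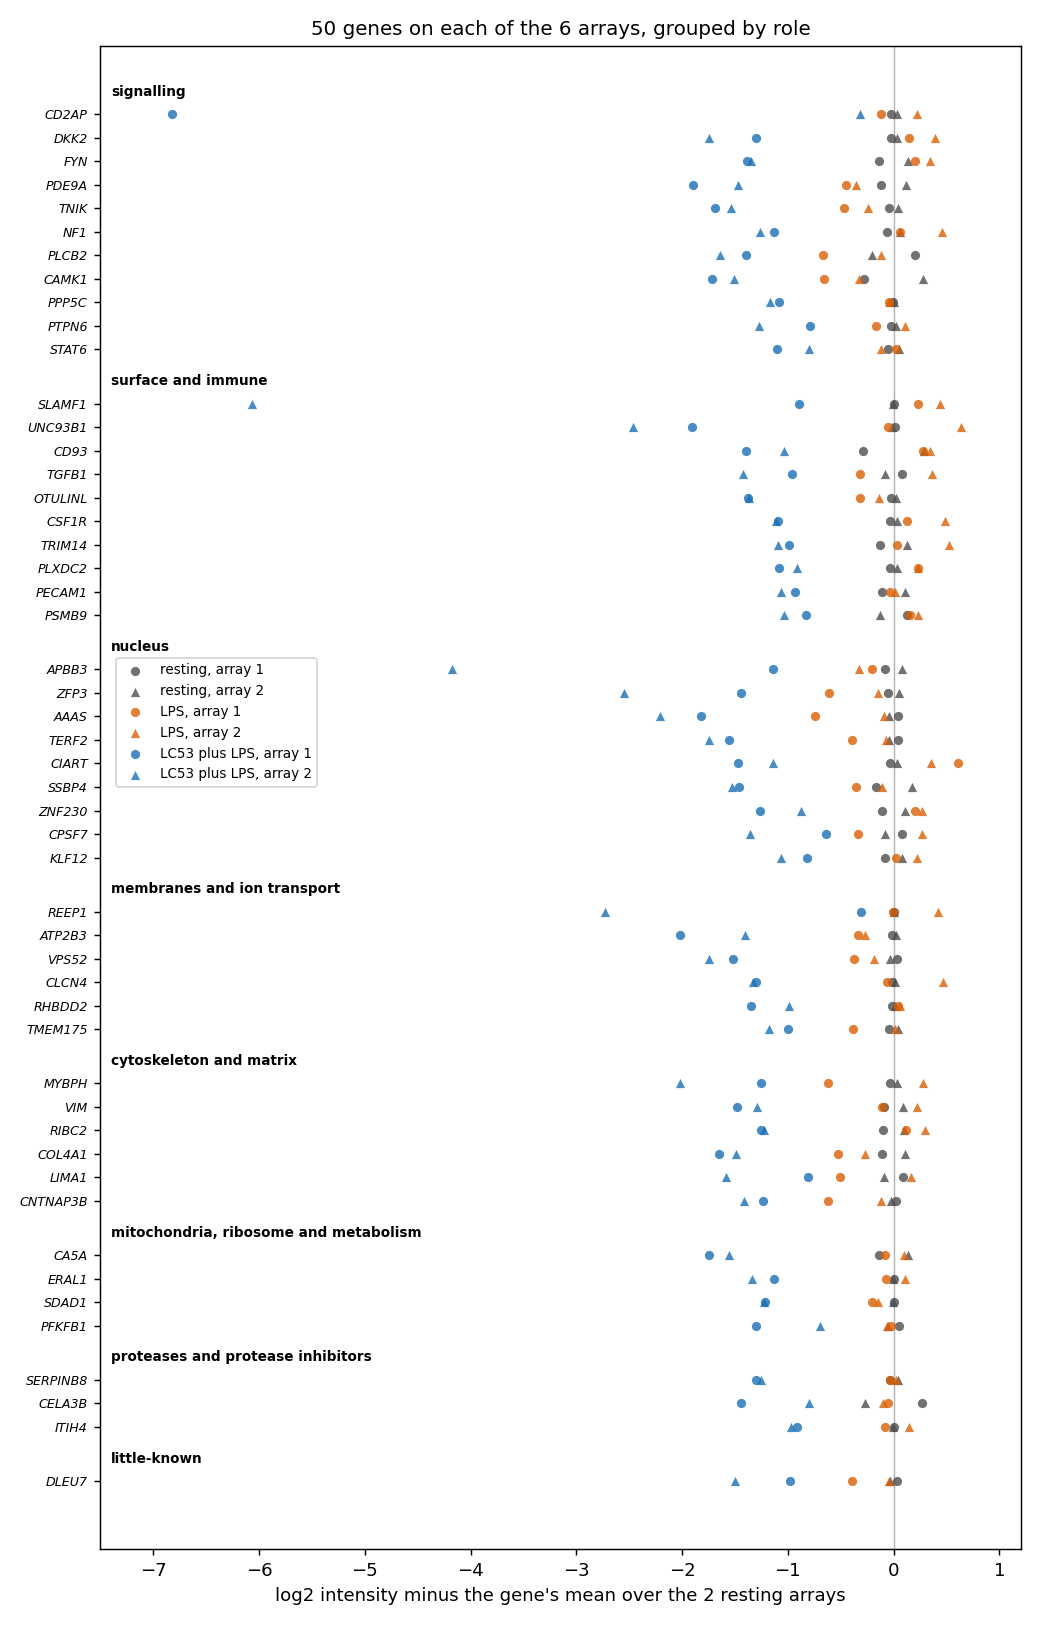
Log2 intensity of the 50 genes on each array, with the gene's mean over the 2 resting arrays set to 0, grouped by role and ordered within each role by the weaker of the LC53 differences. Circles are replicate 1 and triangles replicate 2 of resting (grey), LPS (orange) and LC53 plus LPS (blue) cells. The blue points lie left of all others in every row, and CD2AP, SLAMF1, APBB3 and REEP1 show 1 blue point far from the other.

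The surface receptors and immune genes numbered 10, with median differences of -1.27 against LPS and -1.15 against resting cells. CSF1R, the receptor tyrosine kinase that supports survival and differentiation of monocytes and macrophages (probe PH_hs_0010440), read 1851 and 1944 at rest, 2078 and 2651 after LPS, and 891.5 and 879 after LC53 and LPS. The 2 LC53 plus LPS arrays differed little from each other and lay below every other array. The difference was -1.41 ± 0.20 against LPS and -1.10 ± 0.20 against resting cells (SE, n = 2 per group). Its ligand gene CSF1 had group means of 195, 163 and 226 in resting, LPS and LC53 plus LPS cells, and those of the other ligand gene, IL34, lay between 17.9 and 19.0. CSF1R itself passed the test against LPS and not against resting cells, in contrasts that the rule used. Neither ligand gene passed in any contrast.

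CD93, a C-type lectin-like receptor of monocytes and endothelium (probe PH_hs_0005267), read 6455.5 and 9579 in resting cells, 9537 and 9959 with LPS alone, and 2989.7 and 3843 when LC53 came first. Resting replicate 1 stood below the other resting and the LPS arrays, and the 2 LC53 plus LPS arrays were lower still, at a difference of -1.52 ± 0.26 against LPS and -1.21 ± 0.26 against resting cells. THBD, which encodes the related receptor thrombomodulin, had group means of 651, 1301 and 516, a difference of -1.33 against LPS (limma adjusted p = 0.0396) and -0.34 against resting cells (limma adjusted p = 0.516). PECAM1, the adhesion molecule CD31 used by leukocytes in crossing endothelium, read 5236 and 6114 at rest, 5527 and 5715.5 after LPS, and 2969.7 and 2713 after LC53 and LPS. Its level with LC53 was close to 50% of both other groups (50.5% and 50.2%). PLXDC2, a plexin domain-containing membrane protein, read 201 and 209.8 in resting cells, 242 and 241 with LPS alone, and 96.9 and 109 when LC53 came first.

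OTULINL, a relative of the deubiquitinase OTULIN that lacks its activity (probe PH_hs_0022702), read 7068 and 7335 at rest, 5773 and 6555 after LPS, and 2768 and 2786 after LC53 and LPS. A second probe of the gene read 1373 and 1485.5 in resting cells, 1216 and 1236 with LPS alone, and 515 and 581 when LC53 came first, and its differences of -1.16 and -1.38 were close to the -1.15 and -1.37 of the first. OTULIN itself had group means of 63.1, 60.4 and 104. UNC93B1, the chaperone that carries nucleic acid-sensing Toll-like receptors to endosomes, read 106 and 104 at rest, 101.0 and 163.5 after LPS, and 28.1 and 19.0 after LC53 and LPS. Of those receptors, TLR7 and TLR8 rose with LPS (limma adjusted p = 0.00653 and 0.00522), with TLR8 at group means of 73.9, 315.5 and 92.8. LC53 plus LPS differed from LPS alone by -1.14 for TLR7 and -1.76 for TLR8 (limma adjusted p = 0.0625 and 0.0193). A second UNC93B1 probe stayed between -0.962 and 1.04 on all arrays and so gave no reading of the gene.

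TRIM14, an adaptor of antiviral signalling, read 1517 and 1807 in resting cells, 1695 and 2374 with LPS alone, and 833 and 777 when LC53 came first, and its second probe 634 and 611 at rest, 712.5 and 1166 after LPS, and 204 and 148 after LC53 and LPS. The second probe showed larger differences (-2.39 and -1.84) than the first (-1.32 and -1.04), and its LPS minus resting difference of 0.55 lay outside the limit of 0.5. PSMB9, an immunoproteasome subunit, read 7685 and 6457.5 in resting cells, 7865.5 and 8285 with LPS alone, and 3978 and 3437 when LC53 came first. TAP1, the peptide transporter gene that lies next to PSMB9, had group means of 6173, 23917 and 9799.6, a rise with LPS (limma adjusted p = 0.00311). It was also lower with LC53 than with LPS alone (-1.29, limma adjusted p = 0.0237). Of the other immunoproteasome subunits, PSMB8 differed by -0.64 and -0.73 against LPS and resting cells, and PSMB10 by 0.32 and 0.01. Neither these nor PSMB9 passed in any contrast. TGFB1, encoding the cytokine transforming growth factor beta 1, read 209 and 188 at rest, 159 and 255 after LPS, and 101.5 and 73.6 after LC53 and LPS. SLAMF1, a self-binding receptor of leukocytes, read 149.7 and 149 in resting cells, 176 and 203 with LPS alone, and 80.6 and 2.23 when LC53 came first, so its large mean difference rested on LC53 plus LPS replicate 2, and without that array it was -1.23 against LPS and -0.89 against resting cells.

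Promoter sequence is shown for CSF1R, which has a start used in trophoblast and a start used in macrophages, and for VIM and OTULINL as examples of bright genes with 2 close LC53 plus LPS arrays. Each line gives the 250 bases before a RefSeq start (GRCh38.p14), and capitals mark matches to any of 11 short motifs searched on both strands. The CSF1R windows lie at chr5:150113366-150113615 and chr5:150086555-150086804 on the minus strand, the VIM window at chr10:17227991-17228240 and the OTULINL window at chr5:14581542-14581791, both on the plus strand.
CSF1R first start: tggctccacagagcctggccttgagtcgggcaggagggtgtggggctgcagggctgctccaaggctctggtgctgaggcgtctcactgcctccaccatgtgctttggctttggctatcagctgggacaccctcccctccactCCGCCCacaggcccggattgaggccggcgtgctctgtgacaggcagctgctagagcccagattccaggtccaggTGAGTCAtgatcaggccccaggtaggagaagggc
CSF1R second start: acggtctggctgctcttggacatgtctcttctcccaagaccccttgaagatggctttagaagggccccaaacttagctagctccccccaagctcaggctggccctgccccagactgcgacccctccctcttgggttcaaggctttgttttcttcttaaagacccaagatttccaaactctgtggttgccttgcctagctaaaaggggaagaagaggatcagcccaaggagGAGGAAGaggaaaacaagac
VIM: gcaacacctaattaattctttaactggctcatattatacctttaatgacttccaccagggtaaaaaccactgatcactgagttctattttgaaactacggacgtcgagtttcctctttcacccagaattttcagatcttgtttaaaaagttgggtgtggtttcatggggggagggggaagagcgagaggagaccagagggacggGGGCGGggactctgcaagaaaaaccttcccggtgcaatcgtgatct
OTULINL: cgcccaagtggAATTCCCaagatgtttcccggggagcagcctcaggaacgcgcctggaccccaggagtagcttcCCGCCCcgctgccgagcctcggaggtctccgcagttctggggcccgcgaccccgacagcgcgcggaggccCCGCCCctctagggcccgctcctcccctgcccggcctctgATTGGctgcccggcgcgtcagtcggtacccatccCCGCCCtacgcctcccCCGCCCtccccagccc

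The second CSF1R window holds GAGGAAG, the core bound by PU.1, beginning 20 bases before the start, and the first holds an AP-1 match (TGANTCA) beginning 34 bases before it. The OTULINL window holds a CCAAT box (CCAAT), 4 GC boxes (GGGCGG) and part of an NF-kB site (GGGAATT) beginning 239 bases before the start, and the VIM window holds 1 GC box. Starts were listed for 39 of the 50 genes, in 53 windows of 250 bases. The PU.1 core was found in 15.1% of these windows, in 12.2% of the 13136 windows of genes with a resting mean of 100 or more and in 11.2% of all 35116 windows. AP-1 matches were in 9.4%, 4.5% and 6.6% of the windows, GGGAATT in 9.4%, 2.8% and 3.1%, and GC boxes in 54.7%, 61.8% and 42.6%. For the CCAAT box the shares were 34.0%, 33.0% and 32.0%, and for the ETS core (CCGGAAG) 13.2%, 13.7% and 8.5%. The E-box (CACGTG) was in 5.7%, 8.4% and 6.3%, the cyclic AMP response core (TGACGT) in 7.5%, 9.2% and 7.1%, the E2F core (TTCGCGC) in 1.9%, 2.8% and 1.9%, the NRF1 core (GCATGCG) in 3.8%, 4.9% and 3.4%, and TATAAA in 1.9%, 6.5% and 10.7%. With 53 windows, 1 window is 1.9%, so shares of a few windows carry little precision. The PU.1 core windows belonged to 7 genes, CD2AP, CNTNAP3B, CSF1R, MYBPH, PLXDC2, VPS52 and ZNF230, and the GGGAATT windows to 5, AAAS, DLEU7, LIMA1, OTULINL and ZNF230. These are matches of letters and not measured binding.

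Kinases, phosphatases and other signalling genes numbered 11, with medians of -1.26 against LPS and -1.52 against resting cells. FYN, a SRC family tyrosine kinase (probe PH_hs_0024531), read 645 and 783 at rest, 815 and 901 after LPS, and 271 and 279 after LC53 and LPS. Both LC53 plus LPS arrays were less than 50% of the lowest other array, and a second FYN probe, which read 186 and 180.5 in resting cells, 165 and 234 with LPS alone, and 100.6 and 66.9 when LC53 came first, also met every limit of the rule. The difference on the first probe was -1.64 ± 0.19 against LPS and -1.37 ± 0.19 against resting cells. Of the 7 SRC family genes measured, LYN, FGR and SRC rose with LPS (limma adjusted p = 0.00348, 0.00412 and 0.00754). Group means of LYN were 9156, 34495 and 18127. FGR and SRC were lower with LC53 plus LPS than with LPS alone, both at -1.32 (limma adjusted p = 0.0337 and 0.0281). LYN differed by -0.93 in that contrast (limma adjusted p = 0.0591). YES1, by contrast, had means of 180.0, 151 and 151 and passed in no contrast. LYN was higher with LC53 plus LPS than in resting cells (limma adjusted p = 0.0489).

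PTPN6, the phosphatase SHP-1 that restrains signalling of immune receptors, read 2134 and 2207 at rest, 1932 and 2338.5 after LPS, and 1251 and 898 after LC53 and LPS. Its 2 LC53 plus LPS arrays differed by more than those of CSF1R, and the mean level was 49.9% of the LPS level and 48.9% of the resting level. Neither PTPN6 nor the related PTPN11 (SHP-2), with group means of 6571, 8032 and 6651, passed in any contrast. NF1, encoding the RAS GTPase-activating protein neurofibromin, read 405 and 442 in resting cells, 441 and 579 with LPS alone, and 193 and 176 when LC53 came first. Both of its other probes were dim, with means of 41.2 and 31.3, and were lower in the same direction (-0.78 and -0.46 against LPS). Among the other RAS GTPase-activating genes measured, RASA3 fell with LPS (limma adjusted p = 0.0305), with group means of 1346, 643 and 1189.

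TNIK, a kinase of WNT and stress signalling, read 334 and 354 at rest, 249 and 290.4 after LPS, and 107 and 118 after LC53 and LPS. CAMK1, calcium/calmodulin-dependent kinase I, read 669 and 987 in resting cells, 517 and 649 with LPS alone, and 247 and 286 when LC53 came first. The LPS minus resting difference of CAMK1 was -0.49, the nearest to the limit of 0.5 among the 50 genes, and its second probe had -0.85 and so lay outside. PPP5C, a serine/threonine phosphatase that binds HSP90, read 2137 and 2157 at rest, 2083 and 2084 after LPS, and 1016.5 and 953 after LC53 and LPS. The resting and LPS arrays of PPP5C were close to each other, and the level with LC53 was 47.2% of the LPS level and 45.8% of the resting level. PLCB2, a phospholipase activated by G proteins, and PDE9A, a cyclic GMP phosphodiesterase, had differences of -1.12 and -1.52 and of -1.28 and -1.69 against LPS and resting cells.

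STAT6, the transcription factor of interleukin-4 and interleukin-13 signalling, read 623 and 669.7 in resting cells, 654 and 595 with LPS alone, and 301 and 370.5 when LC53 came first. It was next to the limit, with -0.903 as its weaker difference. TYK2, a kinase of the same receptors, lay just outside it at -0.896. The receptor gene IL4R had group means of 2511, 6007 and 3838 and rose with LPS (limma adjusted p = 0.0209). Of the other genes of this pathway, JAK1 differed by 0.11 and 0.41 against LPS and resting cells, and JAK3 by -0.02 and 0.08. IL13RA1 differed by 0.25 and 0.36, and IL2RG by -0.84 and 0.46. STAT6, TYK2, JAK1, JAK3 and IL13RA1 passed in no contrast. DKK2, a secreted modulator of WNT signalling, read 261 and 271 at rest, 295 and 348 after LPS, and 108 and 79.2 after LC53 and LPS. CD2AP, an adaptor between CD2 and the actin cytoskeleton, read 1408 and 1464 in resting cells, 1319 and 1674 with LPS alone, and 12.7 and 1153 when LC53 came first. Only LC53 plus LPS replicate 1 was far below the others for CD2AP, and without it the difference was -0.37 against LPS and -0.32 against resting cells.

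**Figure D2:**
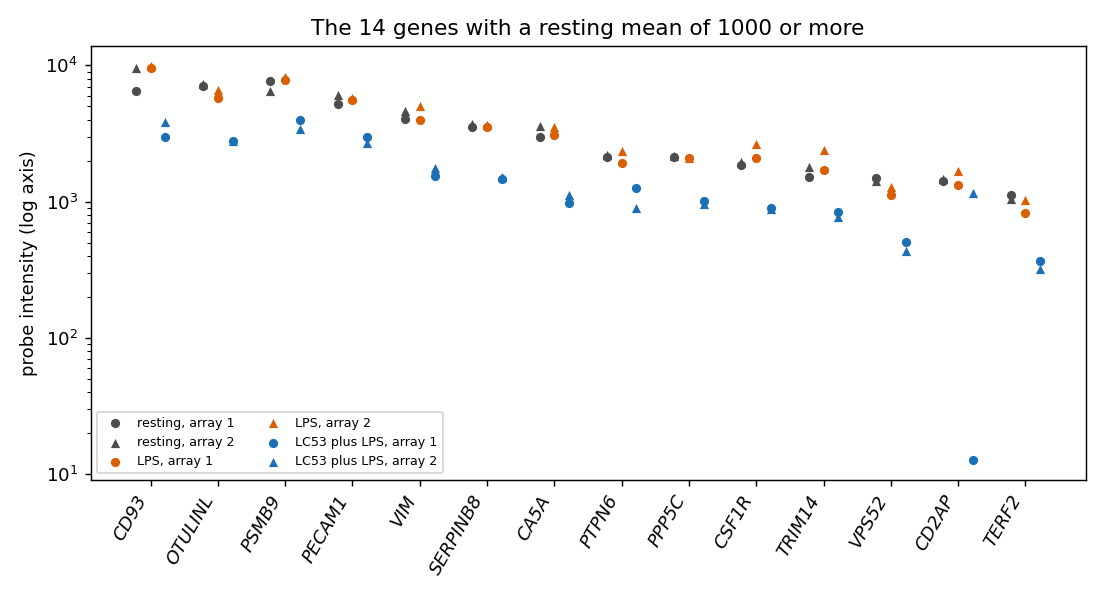
Probe intensity on a log axis for the 14 genes with a resting mean of 1000 or more, ordered by that mean. Grey, orange and blue points are resting, LPS and LC53 plus LPS arrays, circles replicate 1 and triangles replicate 2. In 13 of the genes the 2 blue points lie together below the rest, and in CD2AP 1 blue point reads 12.7 and the other 1153.

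Nuclear genes numbered 9, with medians of -1.42 and -1.49. TERF2, which holds the loop structure of telomere ends as part of shelterin (probe PH_hs_0022164), read 1118 and 1053 at rest, 826 and 1032 after LPS, and 369.6 and 322.5 after LC53 and LPS. Its difference was -1.42 ± 0.20 against LPS and -1.65 ± 0.20 against resting cells. The other 5 shelterin genes, TERF1, TERF2IP, TINF2, POT1 and ACD, passed in no contrast, and their differences against LPS ranged from -0.22 to 0.71. TINF2, for example, had group means of 3576, 3095 and 3508. AAAS, a nuclear pore protein, read 217 and 205 in resting cells, 126 and 198 with LPS alone, and 59.8 and 45.7 when LC53 came first. CIART, a repressor of the circadian clock, read 238 and 249 at rest, 371 and 311.5 after LPS, and 87.9 and 110.5 after LC53 and LPS, and its second probe read 71.4 and 63.5 in resting cells, 95.8 and 119 with LPS alone, and 35.3 and 31.2 when LC53 came first. Both probes of CIART were lower with LC53, while LPS minus resting was 0.48 on the first and 0.67 on the second.

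SSBP4, of the single-stranded DNA-binding protein family, read 487 and 616 at rest, 429 and 509 after LPS, and 199 and 189.7 after LC53 and LPS. The remaining nuclear genes had resting means under 200. They were the zinc finger genes ZFP3 and ZNF230, the repressor KLF12, CPSF7 of the transcript 3' end machinery, and APBB3, which binds the amyloid precursor protein. APBB3 read 153 and 170.4 in resting cells, 139.6 and 129 with LPS alone, and 73.4 and 8.93 when LC53 came first, so most of its mean difference came from LC53 plus LPS replicate 2, without which it was -0.87 and -1.14. ZFP3 was at 32.6% of the LPS level and 25.1% of the resting level, ZNF230 at 40.5% of the LPS level and 47.6% of the resting level, and CPSF7 was at 51.1% of the LPS level and 50.0% of the resting level. KLF12, at -1.06 and -0.94, had the resting mean nearest to the limit of 100, at 100.5. By limma, of 530 zinc finger genes by symbol, 4 were lower and 2 higher with LC53 plus LPS than with LPS alone, with a median of 0.02. Over all 18255 genes 2.26% were lower and 0.882% higher, and nothing particular to zinc finger genes is read from the counts.

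Cytoskeletal and matrix genes numbered 6, with medians of -1.31 and -1.36. VIM, the main intermediate filament protein of mesenchymal and myeloid cells (probe PH_hs_0025444), read 4052 and 4595 at rest, 4007 and 5040.4 after LPS, and 1547 and 1759.7 after LC53 and LPS. The LC53 plus LPS arrays were close to each other, at a difference of -1.45 ± 0.21 against LPS and -1.39 ± 0.21 against resting cells. COL4A1, a basement membrane collagen chain, read 604 and 699 in resting cells, 450.0 and 538.5 with LPS alone, and 207 and 231 when LC53 came first. COL4A2, its partner chain, had another pattern, with group means of 69.6, 239.7 and 62.4. It rose with LPS (limma adjusted p = 0.00721). With LC53 plus LPS it differed from LPS alone by -1.94 (limma adjusted p = 0.0126) and from resting cells by -0.15 (limma adjusted p = 0.766). RIBC2, a protein inside the microtubules of cilia, read 297.5 and 339.9 at rest, 346 and 391 after LPS, and 133 and 136 after LC53 and LPS. Its second probe was near 0 on LPS replicate 1 and on LC53 plus LPS replicate 2 only, and its 2 differences had opposite signs (0.76 against LPS and -2.51 against resting cells). The actin-binding LIMA1, the muscle protein gene MYBPH and CNTNAP3B completed the set. LIMA1 was at 49.2% of the LPS level and 43.7% of the resting level, MYBPH at 36.1% of the LPS level and 32.1% of the resting level and CNTNAP3B at 51.6% of the LPS level and 39.9% of the resting level. CNTNAP3B has a near-identical copy, CNTNAP3, that its probe may also detect.

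Genes of organelle membranes and ion transport numbered 6, with medians of -1.38 and -1.42. VPS52, a subunit of the GARP complex that tethers vesicles at the Golgi, read 1483.5 and 1421 in resting cells, 1122 and 1277 with LPS alone, and 505.5 and 432 when LC53 came first. VPS51 of the same complex had group means of 4753, 2638 and 2923 and VPS53 of 97.5, 142 and 122, and neither passed in any contrast. The VPS54 probe was at or below 1 on average in each group and was not read. CLCN4, a chloride/proton exchanger of endosomes, read 398 and 403 at rest, 383 and 555 after LPS, and 162 and 159.6 after LC53 and LPS, and its second probe, at 165 and 156 in resting cells, 142 and 170.2 with LPS alone, and 40.8 and 43.5 when LC53 came first, also met the rule. The other 4 exchangers of that family, CLCN3, CLCN5, CLCN6 and CLCN7, passed in no contrast.

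RHBDD2, a rhomboid domain protein of the Golgi, read 667 and 683 at rest, 694 and 702 after LPS, and 265 and 340.3 after LC53 and LPS. ATP2B3, a plasma membrane calcium pump, differed by -1.41 and -1.71, and TMEM175, a lysosomal ion channel, by -0.90 and -1.09. The ATP2B3 probe read 26.3 and 40.2 after LC53 and LPS, and a second, dim ATP2B3 probe with a mean of 32.6 differed by only -0.19 and -0.26. ATP2B1, another calcium pump gene, rose with LPS (limma adjusted p = 0.0291), with group means of 113, 304 and 251. REEP1, an endoplasmic reticulum-shaping protein, read 119 and 119 in resting cells, 119 and 159.6 with LPS alone, and 96.0 and 17.9 when LC53 came first, and its mean difference rested on LC53 plus LPS replicate 2, without which it was -0.52 and -0.31.

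Metabolic, mitochondrial and ribosome assembly genes numbered 4. CA5A, a mitochondrial carbonic anhydrase best known from liver (probe PH_hs_0042605), read 2979.8 and 3594 at rest, 3094 and 3512 after LPS, and 973 and 1115 after LC53 and LPS. Resting and LPS cells differed by 0.01, and LC53 plus LPS differed by -1.66 ± 0.20 against LPS and -1.65 ± 0.20 against resting cells. The other mitochondrial carbonic anhydrase, CA5B, had group means of 177.5, 171 and 156.5 and passed in no contrast. ERAL1, a GTPase that assembles the small mitochondrial ribosomal subunit, read 525 and 521 in resting cells, 499 and 565 with LPS alone, and 238 and 206 when LC53 came first. Its second probe was lower by less, at -0.65 and -0.89. SDAD1, a factor of cytosolic ribosome assembly, read 486 and 483 at rest, 421 and 436.5 after LPS, and 208 and 207.5 after LC53 and LPS. PFKFB1, the liver form of an enzyme regulating glycolysis, was at 51.4% of the LPS level and 49.9% of the resting level. None of the 48 ribosome biogenesis genes or the 56 genes of mitochondrial translation and assembly that were listed passed in either LC53 contrast. Over all 18255 genes 3.14% passed against LPS and 3.53% against resting cells, so nothing is read from these counts. ERAL1 and SDAD1 were in neither list.

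Proteases and their inhibitors numbered 3. SERPINB8, an intracellular serine protease inhibitor, read 3511 and 3699 in resting cells, 3509 and 3655 with LPS alone, and 1460.4 and 1514 when LC53 came first. Its second probe read 2766 and 3082 at rest, 2614.5 and 2897 after LPS, and 1925 and 2051 after LC53 and LPS, a smaller difference (-0.47 and -0.56 against -1.27 and -1.28 on the first). CELA3B, a pancreatic elastase, and ITIH4, a plasma protein made by liver, differed by -1.05 and -1.12 and by -0.97 and -0.94. The second ITIH4 probe differed by less, at -0.31 and -0.41, and the second CELA3B probe, with a mean of 13.8, was at -0.24 and 0.13. CELA3B has a near-identical copy, CELA3A, which its probe may also detect. CA5A, CELA3B, ITIH4 and MYBPH are known mainly from other tissues, and probe sequences were not used here, so what these probes detect in THP-1 was not checked. DLEU7, a gene of the region deleted in chronic lymphocytic leukaemia, read 184 and 176.5 in resting cells, 137.5 and 175 with LPS alone, and 91.5 and 63.6 when LC53 came first.

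**Figure D3:**
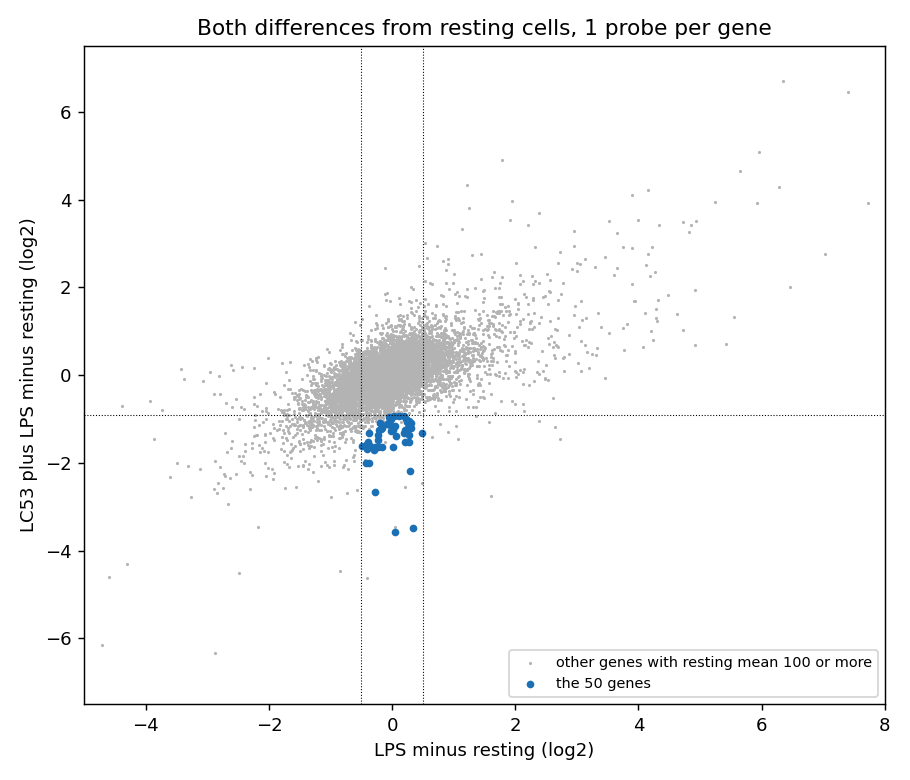
Difference from resting cells on the log2 scale for LPS (horizontal) and for LC53 plus LPS (vertical), for the 10906 genes with a resting mean of 100 or more. Blue points are the 50 genes, grey points the others, dotted lines the limits of -0.5, 0.5 and -0.9, and 4 genes lie outside the axes. Grey points below the horizontal line between the vertical ones failed another limit of the rule.

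The 50 genes also differed in how firmly the arrays showed them. In 34 of the 50 each LC53 plus LPS array alone was 0.9 or more below the mean of both other groups, and in 16 at least 1 array was not. The 2 LC53 plus LPS arrays were over 2 apart on the log2 scale for 4 genes, CD2AP, SLAMF1, APBB3 and REEP1, and the median gap was 0.24. For resting arrays the median gap was 0.09 and for LPS arrays 0.24, with LPS replicate 2 above replicate 1 in 44 of the 50. LPS minus resting was above 0 in 23 genes and below 0 in 27. Both LC53 differences were 1 or more below 0, that is a level of 50% or less of both groups, in 40 genes. Any array value under 50 occurred in 10 genes, and no value of the 50 genes exceeded 9959, while the highest value per array was between 59354 and 73104.

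By limma across all probes, 24 of the 50 genes passed as lower in LC53 plus LPS against LPS, beside 2.26% of all 18255 genes, with 0.882% higher and 3.14% in either direction. Against resting cells 24 passed as lower, beside 1.51% of all genes, with 2.03% higher and 3.53% in either direction. Both contrasts were passed by 19 genes and at least 1 by 29, and the contrasts share the LC53 plus LPS arrays. For these 2 combined counts the share over all genes was not taken. None passed in LPS against resting, where 7.56% of genes passed in either direction, 3.10% lower and 4.46% higher. The rule fixed these directions, so nothing is read from the counts. Both LC53 plus LPS arrays lay below the other 4 in 7.90% of all genes and in 10.3% of those with a resting mean of 100 or more.

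Genes just outside the limits had like patterns. EPHB3, RAB17 and RIN3 missed the resting mean of 100 at 97.4, 93.2 and 93.0, while KLF12, UNC93B1 and ATP2B3 lay just inside at 100.5, 105.0 and 106.5. For the limit on LPS minus resting, CAMK1, CIART and AAAS lay inside at an absolute difference of 0.489, 0.481 and 0.416, and HSH2D, DHRS4-AS1 and BLNK outside at 0.57, 0.611 and 0.615. For the limit on the weaker LC53 difference, TMEM175, STAT6 and PSMB9 lay inside at -0.90, -0.903 and -0.93, and TYK2, NCKIPSD and PHLPP1 outside at -0.896, -0.889 and -0.888. A further 7 genes, among them TCTN3, met all limits except that 1 LC53 plus LPS array was not below the other 4. TCTN3, chosen after its values were seen, read 536 and 581 at rest, 349 and 515 after LPS, and 457.5 and 1.12 after LC53 and LPS.

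Other probes, 18 in all, were present for 17 of the 50 genes, and that of UNC93B1 was near 0 on every array. The probes were on the same arrays, so they bear on the probe and not on the samples. Every limit of the rule was met by 3 of the 18. In LC53 plus LPS against both other groups 15 of 18 were below 0 and 8 were at -0.9 or lower, or 83.3% and 44.4%. Of the 4706 other probes of other genes with a resting mean of 100 or more, 25.9% and 1.4% were so. Among the 10 probes with a mean of 50 or more, 9 were below 0 and 5 at -0.9 or lower in both. The exception was RIBC2. The remaining 33 genes had 1 probe, and the reading of UNC93B1 rests on 1 probe too.

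**Figure D4:**
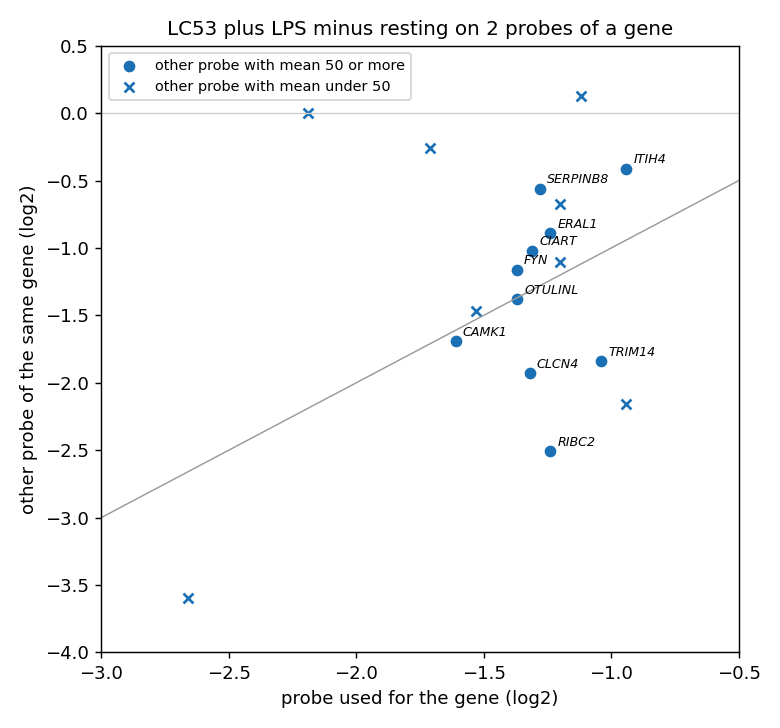
LC53 plus LPS minus resting on the log2 scale for the probe used (horizontal) and for another probe of the same gene (vertical), for 18 other probes of 17 genes. Filled circles are other probes with a mean of 50 or more, crosses dimmer ones, and the diagonal marks equal values. All 10 circles lie below 0, with OTULINL and CAMK1 nearest to the diagonal.

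Of the 24 gene lists 7 held any of the 50 genes. The leukocyte surface and antigen receptor list held 3, CD93, CSF1R and PECAM1. By limma, of its 92 measured genes 13 were lower and 2 higher with LC53 plus LPS than with LPS, and 4 were lower and 3 higher than in resting cells, with medians of -0.16 in both. Over all 18255 genes 2.26% were lower and 0.882% higher against LPS, and 1.51% lower and 2.03% higher against resting cells, with medians of 0.16 and 0.10. Nothing particular to a list is read from these counts. The list of signalling kinases and phosphatases held FYN and PTPN6. Of its 74 genes 5 were lower and 0 higher against LPS, and 4 lower and 5 higher against resting cells, with medians of -0.26 and 0.04. VIM, TRIM14 and TGFB1 were each the single gene found in the lists of small GTPase regulators and cytoskeleton, ubiquitin enzymes, and TGF-beta, WNT, Notch and Hippo signalling. Myeloid transcription factors held none, and of their 32 genes 1 was lower and 0 higher against LPS, and 2 lower and 3 higher against resting cells. The 53 cell cycle and DNA replication genes, with medians of -0.16 and 0.03, and the 49 DNA repair genes, with -0.09 and -0.04, also held none. No 2 of the 50 genes were neighbours among measured genes in the RefSeq gene order.

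The count of genes meeting the rule depended on the scaling and on single arrays. Quantile normalization, median centring and cyclic loess gave 66, 78 and 76 genes and kept 48, 49 and 48 of the 50. An offset of 50 before the log gave 33 genes and kept 32. Leaving out LPS replicate 2 kept 35 and leaving out LC53 plus LPS replicate 2 kept 39, the fewest among the 6 arrays. The rule was met under the 3 scalings, the offset and without each array in turn by 17 genes: CA5A, DKK2, TERF2, VIM, FYN, VPS52, CLCN4, SERPINB8, SSBP4, TNIK, RIBC2, ERAL1, NF1, RHBDD2, OTULINL, CSF1R and PPP5C.

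**Figure D5:**
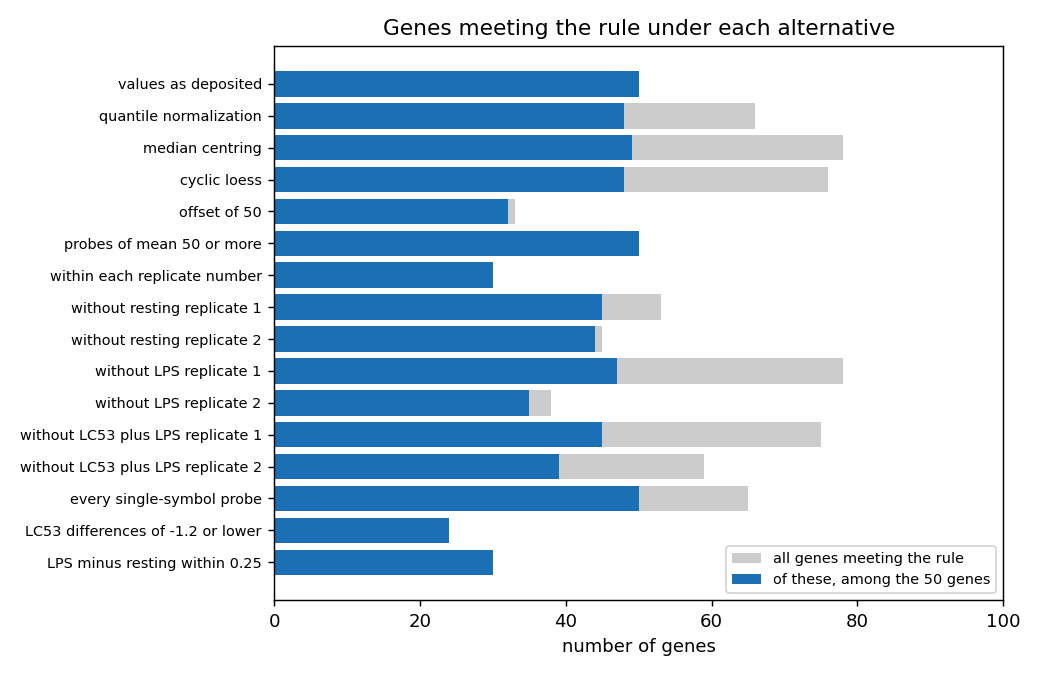
Number of genes meeting the rule (bar) under each alternative, with the part that belongs to the 50 genes in blue. Bars start at 0. The blue part is 44 or more under the 3 scalings and without either resting array, and 24 with the stricter limit of -1.2.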

How the data were processed

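Total RNA was amplified and labelled with Cy5, per the labels' protocols. The authors deposited linear probe intensity, for which no scanner, background or scaling step is named in the sources used here. Of the 31741 probes, 22404 had a single symbol current in RefSeq, 2177 one that was updated, 77 one kept as given, 1002 several and 6081 none. Values were used as deposited, set to at least 1 and put on the log2 scale.

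limma 3.58.1 (R 4.3.3) was fitted with 1 mean per group over all 6 arrays, as a 2-sided moderated test with Benjamini-Hochberg adjustment over all probes, called below 0.05. P-values measure only the spread between these arrays, which may be technical. The fit was also run on simulated data with independent noise and no shifts of whole arrays. That run thus says nothing on how such shifts move the counts here. Errors are SE of that fit unless stated.

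The genes, the 24 gene lists and the motifs were chosen with earlier results of these data known. Families of single genes (shelterin, SRC kinases and others) were chosen after the 50 genes were seen. As there were 60 or fewer genes, all could be named, with the 3 genes on each side of a limit. Alternatives were 3 scalings, an offset of 50, a filter on dim probes, a replicate block, each array left out, the 2 groups alone, every probe, and stricter limits. Tables were made with pandas 2.3.3 and numpy 2.4.6 in Python 3.11.15, and figures with matplotlib 3.10.9. Promoter sequences are from RefSeq.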

Additional observations from a re-analysis of the deposited data

How the results depend on the processing

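With 2 arrays per group, called counts moved widely. For LC53 plus LPS against LPS, LC53 plus LPS against resting and LPS against resting, 834, 941 and 2069 probes were called. Quantile normalization gave 3755, 3494 and 5157, median centring 2416, 2440 and 3802, cyclic loess 3585, 3370 and 5032, and an offset of 50 gave 2352, 2197 and 3494. The dim-probe filter gave 1856 and 1925 in the first 2 contrasts. Fits of only the 2 groups compared gave 305, 1555 and 1200. Leaving out 1 array gave 91 to 2318, 75 to 1555 and 479 to 2579. The lowest counts came without LC53 plus LPS replicate 2 in the first contrast and without resting replicate 1 in the others. Without LPS replicate 2 the first contrast had 2318 calls, 1695 higher and 623 lower, and 5 of the 6 omissions lowered its count by over 1.5 times. The split of higher and lower calls, 218 and 616, 557 and 384, and 1276 and 793, became 1650 and 2105, 1519 and 1975, and 2553 and 2604 after quantile normalization. For LC53 plus LPS against resting it became 1077 and 1363 after median centring and 1507 and 1863 after cyclic loess. The median of all probes shifted by -0.14 to -0.09 in the LC53 contrasts under the 3 scalings, and that of the 50 genes by -0.13 to -0.06. Under the offset of 50 the median of all probes shifted by -0.01 in both. That of the 50 genes moved by 0.24, to -1.04 against LPS and -1.05 against resting cells.

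The replicate block gave 389 and 481 calls in the LC53 contrasts, and 30 genes met the rule within both replicate numbers. Same-numbered arrays deviated together at r = 0.344 for resting and LC53 plus LPS, 0.027 for resting and LPS and -0.178 for LPS and LC53 plus LPS, so the numbers were not taken as pairs. Genes meeting the rule numbered 78 with median centring, 76 with cyclic loess, 33 with the offset, 24 at a limit of -1.2, 30 with LPS within 0.25 of resting, and 38 to 78 without 1 array (78 without LPS replicate 1 and 75 without LC53 plus LPS replicate 1). Of 1300 recomputed LC53 differences of single genes none changed sign and 96 moved by more than the spread between arrays. The rule chose genes with both LC53 plus LPS arrays below all others, so nothing is read from the unchanged signs. Other probes of the genes below 0 in both LC53 contrasts were 15 of 18, and 9 of 10 when only those with a mean of 50 or more were taken. With the offset of 50 they were 17 of 18, while those at -0.9 or lower in both went from 8 to 3. Their medians with the offset were -0.39 against LPS and -0.54 against resting cells, beside -0.81 and -1.13 without it. The cause of these changes was not tested.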

Other observations

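The rule was also met by 21 of the 7083 probes without a single symbol, which were left unnamed. Counted over every probe with a single symbol, 69 probes of 65 genes met it, including all 50 genes.

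Probes that read under 20 on 1 array and 80 or more on the other 5 numbered 20 on LPS replicate 1, 6 on LC53 plus LPS replicate 2, 4 on resting replicate 1, 2 on LC53 plus LPS replicate 1 and 0 on the other 2 arrays. Among them were the CD2AP probe, low on LC53 plus LPS replicate 1, and 2 probes of the 50 genes that were low on LC53 plus LPS replicate 2. This count was chosen after the 50 genes were seen.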
